A study of Homo sapiens with 4 samples.

Results

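AIM2 and IFI16 are interferon-inducible DNA sensors that lie side by side on human chromosome 1, and the cohesin loops around them were described in 4 SMC1 HiChIP libraries. A loop was taken when an anchor lay on or within 250 kb of either gene body, a window from 158749976 to 159397132 (build hg38). Of the 41846 loops listed in any library, 21 met this rule, and 6 of these were listed in all 4 libraries, where the whole set holds 9529 such loops. HiChIP joins proximity ligation of chromatin with immunoprecipitation, here of SMC1, a subunit of the cohesin ring. All libraries come from GM12878, a line of B lymphoblastoid cells immortalised with Epstein-Barr virus. Aphidicolin (APH), which blocks the replicative DNA polymerases, was given at 0.4 µM for 18 h with dimethyl sulfoxide (DMSO) as its vehicle. Hydroxyurea (HU), which depletes deoxynucleotides, was given at 0.2 mM for 18 h with water (H2O) as its vehicle. The 4 groups hold 1 library each, so every difference below compares libraries and has no replicate check. Both genes were chosen by the listed contact counts of their loops, with earlier results of these data known, so their values are a description and were not tested. The sample titles name a different lymphoblastoid line from the one given in the source and cell line fields, which is used here.

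Proteins of the PYHIN family carry a pyrin domain, which recruits partners, and, in most members, a HIN domain that binds DNA. AIM2 senses double-stranded DNA in the cytosol and recruits the adaptor PYCARD to activate caspase 1 in an inflammasome. IFI16 acts in the nucleus as well, where it binds viral genomes, and it signals through STING1. Cohesin forms loops by extruding chromatin until it meets a barrier, often CTCF. A listed loop is a pair of places called from SMC1 HiChIP contacts, and how those contacts formed was not tested.

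The IFI16 body (chr1:158999976-159055151) and the AIM2 body (chr1:159055051-159147132) overlap by 101 bases at their ends. RefSeq's promoter table (build GRCh38.p14, the same build as hg38) places 2 starts of IFI16 at 159008991 and 159009907 on the plus strand, and the start of AIM2 at 159076766 on the minus strand. The starts of the neighbours are thus 67.8 kb apart. The promoters are shown because listed loops have anchors on the 5 kb bins that hold them. Each runs from 250 bases before to 50 bases after the start. Capitals mark matches to the core of the interferon-stimulated response element, GAAANNGAAA, searched on both strands.

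AIM2, chr1:159076717-159077016, minus strand: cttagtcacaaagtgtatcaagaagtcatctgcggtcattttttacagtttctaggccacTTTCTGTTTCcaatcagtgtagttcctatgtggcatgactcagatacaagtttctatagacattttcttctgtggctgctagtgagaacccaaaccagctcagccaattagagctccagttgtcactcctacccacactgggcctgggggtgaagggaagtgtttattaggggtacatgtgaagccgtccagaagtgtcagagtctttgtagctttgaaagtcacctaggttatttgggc

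IFI16, upstream start, chr1:159008741-159009040, plus strand: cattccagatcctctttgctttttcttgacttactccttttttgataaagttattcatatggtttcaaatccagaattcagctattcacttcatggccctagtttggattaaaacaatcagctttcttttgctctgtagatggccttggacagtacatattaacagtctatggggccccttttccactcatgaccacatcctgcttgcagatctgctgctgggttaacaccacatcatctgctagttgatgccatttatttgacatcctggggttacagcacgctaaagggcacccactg

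IFI16, downstream start, chr1:159009657-159009956, plus strand: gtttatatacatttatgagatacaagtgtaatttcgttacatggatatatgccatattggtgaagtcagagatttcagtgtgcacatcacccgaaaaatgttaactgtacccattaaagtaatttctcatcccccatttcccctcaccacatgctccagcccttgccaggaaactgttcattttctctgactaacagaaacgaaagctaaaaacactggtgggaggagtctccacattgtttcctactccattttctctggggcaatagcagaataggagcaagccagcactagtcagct

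The AIM2 promoter held 1 match, TTTCTGTTTC, on the opposite strand and beginning 190 bases upstream of the start. Neither IFI16 window held these letters. Of 35116 promoters of the same length in the table, 3.57% held a match. The gamma-activated sequence TTCNNNGAA, which reads the same on both strands, was found in 7.66% of promoters and in none of the 3 shown. Of the other PYHIN genes, MNDA held a match to the response element core, 85 bases upstream of its start, and PYHIN1 held no match to either motif.

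The lists hold only called pairs of 5 kb bins, each with its contact count, and no listed pair had fewer than 12 counts. The libraries list 17660 to 27395 loops with 449565 to 732695 counts, fewest in DMSO and most in APH. Counts below are as deposited. Ratios are scaled by each library's total over the 9529 loops listed in all 4, which was 300320 with DMSO, 376948 with APH, 325634 with H2O and 322048 with HU. Scaling by all listed loops would lower each APH vs DMSO ratio by 0.38 and each H2O vs DMSO ratio by 0.24 on the log2 scale and raise each HU vs H2O ratio by 0.05. Intervals are 95% exact binomial intervals and cover counting error only. Even the counting error may be understated, since PCR reads with no molecular identifiers stated are not independent molecules. Marker genes of the B cell carried listed loops in 8 of 10 cases, with a median of 4.5 loops per gene, and CD79B and FCRL5 had none. Markers of T cells had loops in 5 of 6 cases (median 1 loop), myeloid markers in 4 of 5 (median 2) and erythroid markers in 1 of 4 (median 0), so having a loop does not by itself mark the cell type.

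The loops fell into a pair of blocks on either side of a stretch of the AIM2 body. The first block held 9 loops, all with an anchor on the IFI16 body, of which 5 joined it to AIM2 and 4 ran the other way, away from AIM2. The second held 12 loops, of which 3 had an anchor in the distal part of AIM2 and 9 lay between AIM2 and the far side of CADM3 with no anchor on either sensor. No loop of any library crossed the 50 kb between chr1:159080001 and 159130000, which lies in the AIM2 body upstream of the AIM2 start, and none had an anchor in it. No loop spanned the whole window. Loops per library numbered 11 with DMSO, 15 with APH, 14 with H2O and 10 with HU, with 350, 532, 390 and 376 counts. As shares of each list these are 0.0623% (0.0311 to 0.111) in DMSO, 0.0548% (0.0306 to 0.0903) in APH, 0.0624% (0.0341 to 0.105) in H2O and 0.0466% (0.0224 to 0.0857) in HU, so all 4 intervals overlap.

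**Figure D1:**
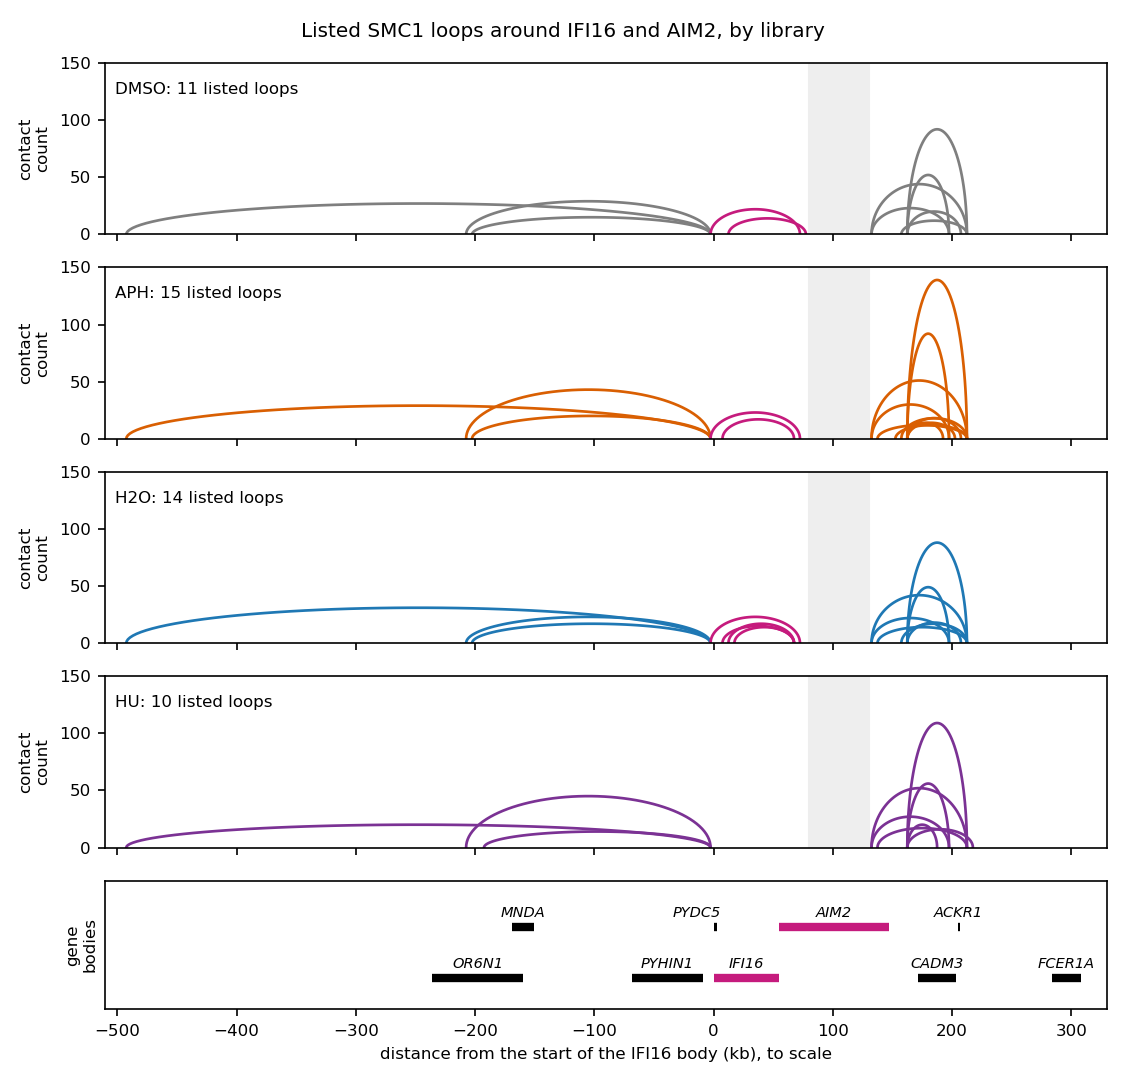
Listed loops of each library drawn as arcs between anchor centres, with the contact count as arc height and distance from the start of the IFI16 body in kb. Arcs in magenta join IFI16 to AIM2 and are seen in DMSO, APH and H2O only; the grey band is the 50 kb of the AIM2 body that no loop crosses, and the lowest panel shows 9 of the gene bodies.

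Of the 11 protein-coding genes whose bodies reach the window, 6 carried a listed loop. IFI16 had 9 loops in any library and AIM2 8, and 5 of these join both genes. PYDC5, which encodes a pyrin-only inhibitor of DNA-sensing inflammasomes, had 5 loops, all through a bin it shares with the first bases of IFI16. The cell adhesion gene CADM3 had 5, the olfactory receptor gene OR6N1 had 3, and ACKR1, which encodes an atypical chemokine receptor of red cells and endothelium, had 2. MNDA and PYHIN1, the remaining PYHIN genes, had no listed loop in any library, nor did the IgE receptor gene FCER1A or the olfactory receptor genes OR6K6 and OR6N2. An unlisted pair is not a measured 0.

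The central anchor of the first block was the bin chr1:158995001-159000000, just before IFI16. It overlaps the RefSeq body of IFI16 by only 25 bases, and its end lies 8.99 kb upstream of the first IFI16 start of the promoter table. Of the 9 loops, 5 used this bin, 4 of them away from AIM2, with 3 ending in the olfactory receptor gene OR6N1, and 1 toward AIM2. The longest, of 490 kb, reached chr1:158505001-158510000, a bin with no gene in the table. It had 27 counts with DMSO, 29 with APH, 31 with H2O and 20 with HU. HU was thus the lowest library at this loop, and H2O and APH the highest before scaling. The log2 ratio was -0.62 (-1.50 to 0.24) for HU vs H2O and -0.22 (-1.03 to 0.59) between APH and DMSO, with both intervals including 0.

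A loop of 205 kb joined the same anchor to chr1:158790001-158795000, inside OR6N1. It had 29 counts with DMSO, 43 with APH, 23 with H2O and 45 with HU. Both drug libraries were thus above both vehicles. HU stood above H2O by 1.98-fold, a log2 ratio of 0.98 (0.23 to 1.78), and APH above DMSO by 0.24 (-0.47 to 0.97). H2O itself was the lowest library, at -0.45 (-1.31 to 0.39) against DMSO, and against DMSO the HU value was 0.53 (-0.17 to 1.26), an interval that includes 0. The neighbouring pair of 200 kb had 15 counts in DMSO, 20 in APH and 17 in H2O and was not listed in HU. In its place HU listed a pair of 190 kb with 14 counts, which no other library lists.

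The loops that join IFI16 to AIM2 were listed in DMSO, APH and H2O, and none was listed in HU. The most regular of them spans 75 kb, from the anchor before IFI16 to chr1:159070001-159075000 in the AIM2 body, next to the bin of the AIM2 start. It had 22 counts in DMSO, 23 in APH and 23 in H2O. The 3 libraries were close to each other, at 7.33, 6.10 and 7.06 counts per 100000 shared counts. At those levels the HU library would hold 23.6, 19.7 or 22.7 counts. A deposited value with no column label, taken here as the expected count, ran from 4.14 to 5.55 for this pair in the 3 libraries. Among 3216 HU loops with expected counts in that range the lowest listed count was 13. The HU count itself is not listed and remains unknown.

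The other 4 loops between the genes were each listed in 1 or 2 libraries. A pair of 60 kb joins the bin of both IFI16 starts, chr1:159005001-159010000, to chr1:159065001-159070000 in AIM2, and had 17 counts in APH and 15 in H2O. In DMSO alone, a pair of 65 kb joined chr1:159010001-159015000 in IFI16 to chr1:159075001-159080000, the bin of the AIM2 start, with 14 counts. H2O alone listed pairs of 55 kb with 17 counts and of 50 kb with 14 counts, both ending on chr1:159065001-159070000. All 5 loops thus lay between 14 and 23 counts, near the lowest count that was listed at all. At a minimum of 24 counts none of them remains in any library.

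Absence of a loop from a single list was common across the genome. Of 11002 loops listed in DMSO, APH and H2O, 13.4% were not listed in HU, and at this locus 4 of 10 were not. Where all 3 other libraries had 20 to 25 counts, as at the 75 kb loop, 49 of 304 loops (16.1%) were not listed in HU. The same share for DMSO was 17.7% over the genome and 1 of 7 here. For H2O it was 11.4% and for APH 6.10%, with 0 of 6 here in each case. The 4 loops missing from HU were the 75 kb loop between the genes, the 200 kb pair and 2 short pairs on the CADM3 side. They had 12 to 23 counts in the other libraries, near the lowest listed count, whereas the 13.4% covers loops of all counts. The 4 of 10 and the 13.4% are therefore not a like comparison. At the anchor before IFI16, 22 of 93 listed counts ran toward AIM2 with DMSO, 23 of 115 with APH and 23 of 94 with H2O. No such share can be given for HU, which listed 79 counts at this anchor but not the 75 kb loop, whose HU count is unknown.

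**Figure D2:**
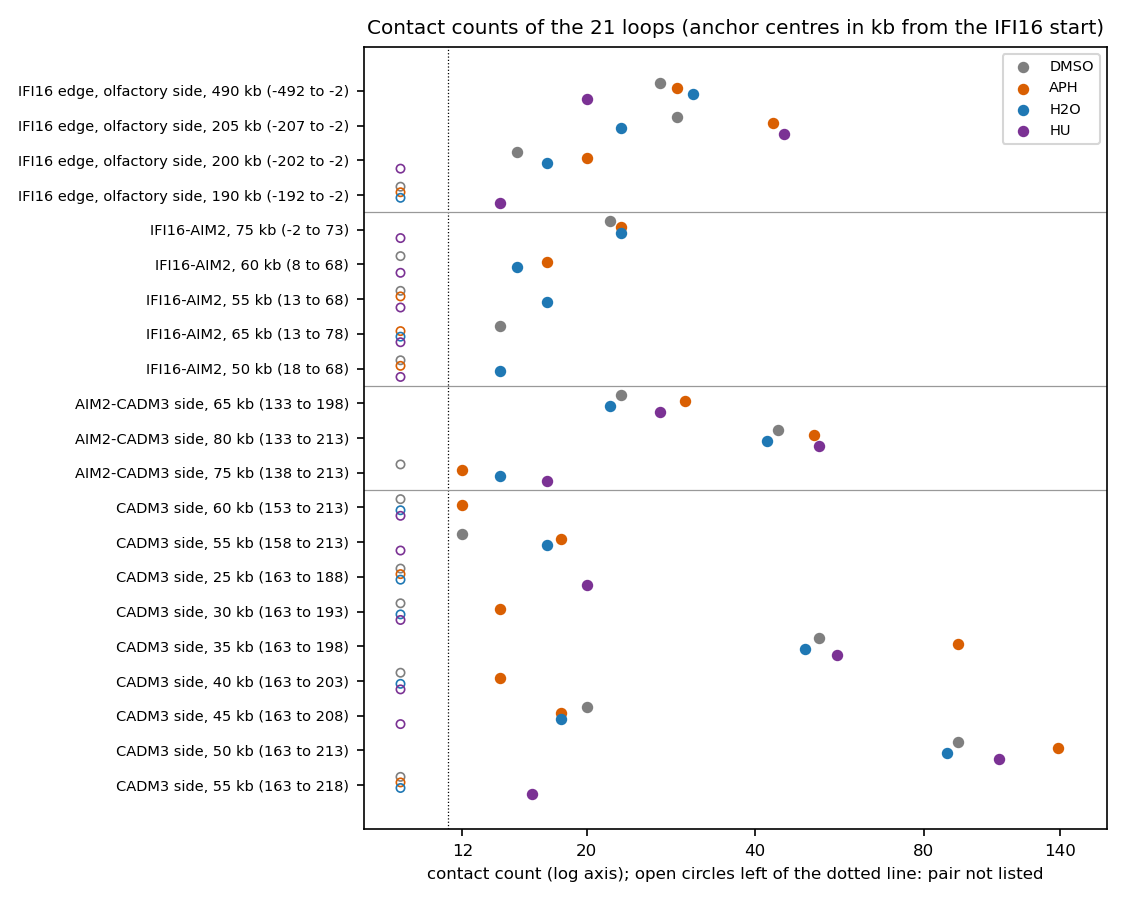
Contact counts of the 21 loops on a log axis, 1 row per loop and 1 point per library, with open circles for pairs not listed. In the second group from the top, IFI16 to AIM2, filled points lie between 14 and 23 and the HU circles are all open.

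Relative to the deposited value taken as the expected count, the highest loop of each library was one that ran from the IFI16 edge away from AIM2. Observed over expected for these loops was 7.13 to 17.0 in DMSO, 8.50 to 14.8 in APH, 7.40 to 17.7 in H2O and 8.39 to 18.8 in HU. The top value was that of the 490 kb loop in DMSO and H2O and of the 205 kb loop in APH and HU, and the lowest in DMSO, of the 200 kb pair, was below the 9.20 of the 80 kb loop on AIM2. The median of all listed loops of 190 to 205 kb was 7.59, 6.92, 6.96 and 7.43 in the same order. The 205 kb loop itself had 11.6, 14.8, 8.46 and 18.8, so it was above that median in every library. Loops between IFI16 and AIM2 stood lower, at 3.05 to 5.32 in DMSO, 3.65 to 4.14 in APH and 2.77 to 4.64 in H2O. For all listed loops of 50 to 75 kb the medians in these libraries were 4.43, 4.14 and 4.07. The medians were thus higher at the longer span. None was taken for loops near 490 kb, so the ranking of the loops is not adjusted for span. Since no listed pair had fewer than 12 counts, a pair with a low expected count could be listed only at a high observed over expected. In DMSO the expected count was 1.59 for the 490 kb loop and 4.14 for the 75 kb loop between the genes. The ranking and the medians are not adjusted for this floor.

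**Figure D3:**
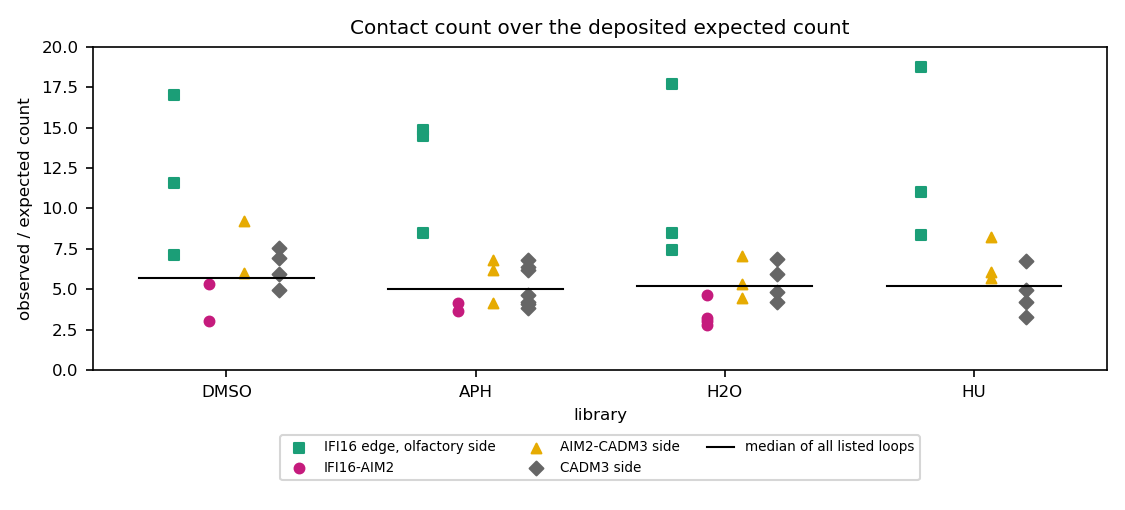
Contact count divided by the deposited value taken as the expected count for each listed loop of the locus, by library, with the median of all listed loops as a black line. Squares (loops from the IFI16 edge away from AIM2, on the olfactory receptor side) reach 18.8 in HU, and circles (IFI16 to AIM2) stay at or below 5.32 and are missing from HU.

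In the second block, 3 of the 12 loops had an anchor on the distal part of AIM2. The anchor at chr1:159130001-159135000 lies 53.2 kb upstream of the AIM2 start in the promoter table, so the loops that count for the AIM2 body in all 4 libraries are not at that start. The RefSeq body of AIM2 runs further upstream, to 159147132, and whether other starts lie there was not examined. A loop of 80 kb from this bin to chr1:159210001-159215000, beyond ACKR1, had 44 counts with DMSO, 51 with APH, 42 with H2O and 52 with HU. The drug libraries were above the vehicles before scaling, and after it the log2 ratio was 0.32 (-0.29 to 0.95) for HU vs H2O and -0.11 (-0.73 to 0.50) for APH vs DMSO. A loop of 65 kb from the same bin to chr1:159195001-159200000 in CADM3 had 23, 30, 22 and 27 counts in DMSO, APH, H2O and HU. Its ratio was 0.31 (-0.56 to 1.19) for HU vs H2O and 0.06 (-0.78 to 0.91) for APH vs DMSO. Another pair, of 75 kb from the next bin, had 12 counts in APH, 14 in H2O and 17 in HU and was not listed in DMSO.

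The strongest loops of the window touched neither gene. The bin chr1:159160001-159165000, which lies between AIM2 and CADM3, was an anchor of 7 loops. Its loop of 50 kb to chr1:159210001-159215000 had the most counts of the window, with 92 with DMSO, 139 with APH, 88 with H2O and 109 with HU. A loop of 35 kb to the CADM3 bin named above had 52, 92, 49 and 56 counts in the same order. APH was highest at both, and the vehicles were close to each other. For APH vs DMSO the 35 kb loop stood at 0.50 (-0.01 to 1.01) and the 50 kb loop at 0.27 (-0.12 to 0.66). The sum of these loops stood at 0.35 (0.05 to 0.66) in APH against DMSO, and at 0.28 (-0.05 to 0.62) in HU against H2O. The APH value is no larger than the 0.38 by which the other scaling lowers it. Of the 9 loops with no anchor on either gene, 5 were listed in a single library, with 3 in APH at 12 to 14 counts and 2 in HU at 16 and 20 counts. Listing in a single library was common, at 45.8% of all loops of the series and 42.9% of those of the locus.

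Few of the 6 loops listed in all libraries differed by much. In HU vs H2O, 1 was at least 1.5-fold higher, where 8.42% of all 9529 loops were, and 1 at least 1.5-fold lower, where 8.61% were. These are the 205 kb and 490 kb loops, which share the anchor before IFI16. The interval lay above a ratio of 1 for the 205 kb loop, where 3.92% of all loops did so, and below it for none, where 3.45% did. In APH vs DMSO no loop of the locus was 1.5-fold higher (6.59% of all loops) or lower (7.87%), and no interval excluded 1 (2.76% above and 2.74% below). In H2O vs DMSO none passed 1.5-fold either (5.50% and 5.34%), and no interval excluded 1 (1.26% and 1.36%). The 6 loops had a median log2 ratio of 0.32 in HU vs H2O, where all loops had -0.0067. Their median was 0.15 in APH vs DMSO and -0.18 in H2O vs DMSO, where all loops had -0.02 and -0.0057.

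**Figure D4:**
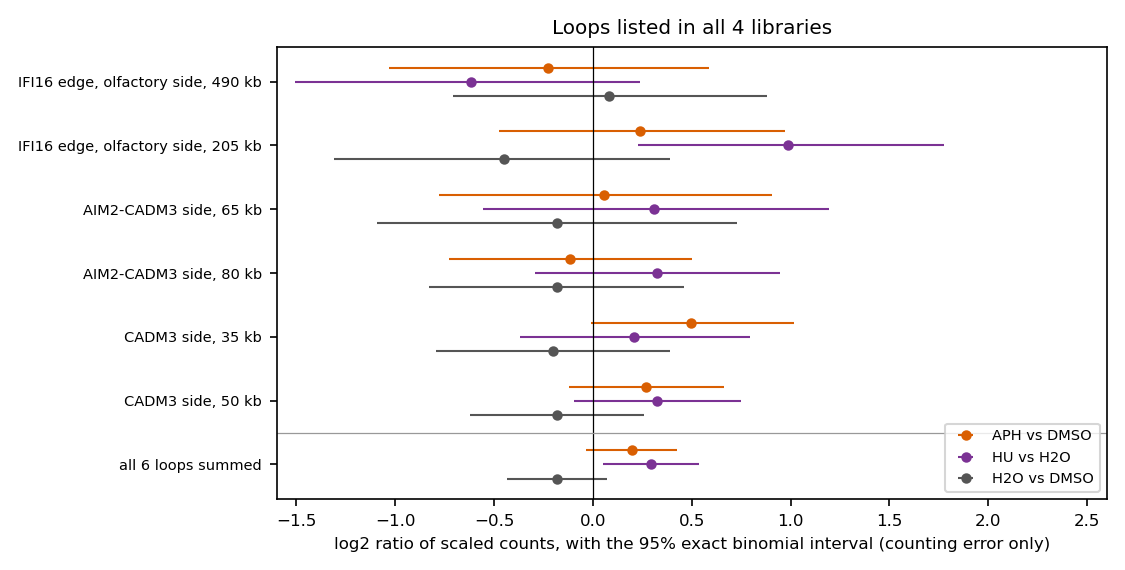
Log2 ratios of scaled counts for the 6 loops listed in all 4 libraries and for their sum, with 95% exact binomial intervals that cover counting error only. The 205 kb loop in HU vs H2O is the single loop whose interval leaves out 0, and 5 of the 6 loops lie below 0 in H2O vs DMSO.

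Summed over the 6 loops, the locus had 267 counts with DMSO, 384 with APH, 255 with H2O and 309 with HU. Per 100000 shared counts these are 88.9, 102, 78.3 and 95.9, so that APH was highest and H2O lowest. Of the unscaled counts, 144, 231, 137 and 165 in the same order came from 2 loops with no anchor on either gene. With only loops on the gene bodies, HU vs H2O stood at 0.30 (-0.06 to 0.67) and APH vs DMSO at -0.01 (-0.36 to 0.34). Both intervals include 0, so the sum of all 6 loops is not a value for AIM2 and IFI16 alone. For that sum, HU vs H2O gave 0.29 (0.05 to 0.54) and APH vs DMSO 0.20 (-0.03 to 0.43). The APH value turned to -0.18 when scaled by all listed loops. H2O vs DMSO, with no drug in either library, gave -0.18 (-0.44 to 0.07), nearly as large in size as the APH value. With the vehicles exchanged, HU stood at 0.11 (-0.13 to 0.35) against DMSO and APH at 0.38 (0.15 to 0.61) against H2O. The HU value thus moved by more than 1.5 times with the vehicle and its interval then included 0, as it did at 0.11 after division by the expected count and at 0.15 with anchors matched within 1 bin.

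The AIM2 body had 2 shared loops, with 67 counts with DMSO, 81 with APH, 64 with H2O and 79 with HU. Scaled to 100000 shared counts the order was HU (24.5), DMSO (22.3), APH (21.5) and H2O (19.7). The IFI16 body also had 2 shared loops, with 56, 72, 54 and 65 counts, and the scaled order was HU (20.2), APH (19.1), DMSO (18.6) and H2O (16.6). No neighbours in either order, nor the highest and the lowest, were separated beyond counting error. AIM2 stood at 0.32 (-0.17 to 0.82) and IFI16 at 0.28 (-0.26 to 0.83) in HU vs H2O. In APH vs DMSO the values were -0.05 (-0.54 to 0.43) and 0.03 (-0.49 to 0.57). The IFI16 sum holds loops that went opposite ways in HU vs H2O, at -0.62 and 0.98, so its value describes neither of them.

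Genes whose scaled counts were most alike over the 4 libraries were looked for among 3829 genes outside the window with at least 100 counts, by the distance between log2 scaled counts centred on their mean. Among the nearest to AIM2 were DSCAML1, a neural adhesion gene (distance 0.03), and DISP2 (0.05). Nearest to IFI16 were SCARA5, a scavenger receptor gene, ANKRD63 and RETREG3, which encodes a receptor for turnover of the endoplasmic reticulum, each at a distance of 0.04. DISP2 and SCARA5 rest on 1 loop each. Counting error is far wider than these distances, with an interval of -0.17 to 0.82 for AIM2 in HU vs H2O. The names are thus only the closest of many genes, and likeness beyond counting error was not tested.

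Partners of the sensors were taken from lists of the pathway. A gene counts as measured when a loop listed in all 4 libraries has an anchor on its body, which held for 4831 of 19974 protein-coding genes (24.2%). Of 15 inflammasome and pyroptosis genes, only CASP8, an initiator caspase, was measured. PYCARD, CASP1, GSDMD and IL1B were not. CASP8 had 210 counts with DMSO, 286 with APH, 264 with H2O and 231 with HU, with a ratio of 0.12 (-0.14 to 0.38) in APH against DMSO and of -0.18 (-0.44 to 0.08) in HU against H2O. Of 28 genes of cytosolic DNA sensing, 7 were measured, and CGAS, STING1 and TBK1 were not. In HU vs H2O, TREX1, the exonuclease that degrades cytosolic DNA, was highest of the 7, with 153 counts against 108 and a ratio of 0.52 (0.15 to 0.89). Its interval was the 1 of 7 above a ratio of 1, where 6.19% of all genes were, and none lay below (5.09%). RNASEH2B, a ribonuclease H subunit gene, was lowest, at -0.25 (-1.18 to 0.67). In APH vs DMSO, RNASEH2B was highest, at 0.46 (-0.43 to 1.38), and NBN, of the double-strand break complex, lowest, at -0.62 (-1.31 to 0.05). The median of the 7 was -0.12 in HU against H2O and -0.21 in APH against DMSO, beside 0.0024 and -0.02 over all genes.

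Of 39 other interferon-induced genes, 5 were measured. IFIT3, an antiviral gene, had 76 counts in DMSO and 63 in APH, a ratio of -0.60 (-1.10 to -0.10). Its interval was the 1 of 5 below 1 in APH vs DMSO, where 3.71% of all genes were, and none lay above (3.19%). The transcription factor gene IRF1 was highest of the 5, with 54 counts in APH and 43 in DMSO, a ratio of 0.00076 (-0.60 to 0.61). In HU vs H2O all 5 intervals included 1, from the RNA sensor gene IFIH1, at -0.48 (-1.22 to 0.24), to IFIT1, at 0.53 (-0.53 to 1.63). The median of the 5 was -0.21 in HU against H2O, -0.37 in APH against DMSO and -0.31 in H2O against DMSO.

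Over the 3 lists together, with 13 measured genes, NBN and IFIT3 were at least 1.5-fold lower in APH against DMSO, where 4.51% of all genes were, and none was 1.5-fold higher (4.06%). In HU against H2O none passed 1.5-fold in either direction, where 6.69% of all genes were higher and 4.31% lower. Between the vehicles none did either (2.86% and 3.48%), and no interval excluded 1 (1.28% above and 1.84% below). H2O was nevertheless below DMSO at both genes, with NBN at -0.54 (-1.25 to 0.15) and IFIT3 at -0.32 (-0.82 to 0.17). Both vehicle intervals include 0, and the APH and H2O ratios of each gene share its DMSO count. Why the APH values of NBN and IFIT3 were low was not tested.

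The window ended far from other loops. On its left the nearest loop outside, a pair of 250 kb listed in APH alone with 13 counts, ended 250 kb beyond the edge. On the right the nearest began 383 kb beyond it, a loop of 110 kb with 24 counts with DMSO, 37 with APH, 26 with H2O and 25 with HU. The outermost anchor within 250 kb of the genes lay 205 kb from IFI16, and the distant end of the 490 kb loop, which was taken through its other anchor, lay 490 kb from it.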

How the data were processed

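SMC1 HiChIP was performed on 4 GM12878 cultures, 1 library per treatment. Per the submitters' processing notes, bcl2fastq 2.17 and MACS3 3.0.1 were used and the build was hg38. Aligner and loop caller: not given in the sources used here. Each library has 1 loop list, deposited by the authors without a header, so columns were read from their values. Deposited contact counts are whole and not normalized, with none under 12. A deposited column that is not whole was taken as the expected count, as it never exceeds the observed count divided by 2. The deposited column taken as an adjusted p-value lies below 0.01, and it and the deposited cluster scores were not used further. Total depth is unknown.

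The members and gene lists were chosen with earlier results of these data known. Loops were matched by the same pair of bins. Scripts ran in Python 3.11.15 with scipy 1.17.1, numpy 2.4.6, pandas 2.3.3 and matplotlib 3.10.9, used no pseudocount and were tested on simulated data. Genes came from a RefSeq table of GRCh38.p14. No p-value was computed, as each group has 1 library. Named were both sensors, genes of the window, the highest and lowest of each list, the most similar genes (of which 1 is not reported here), and loops on the sensors or with most counts or largest ratios. Alternatives covered scaling, vehicle, matching, counts, span, expected counts, window and gene ends.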

Additional observations from a re-analysis of the deposited data

How the results depend on the processing

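The 9 log2 ratios of the locus, AIM2 and IFI16 had 90 alternative values, and all but 2 lay within the interval of the value as reported. The other 2 concern the locus in APH vs DMSO, which went from 0.20 to -0.18 when scaled by all listed loops and to -0.068 after division by the expected count. The locus stayed higher in HU than in H2O or DMSO in 13 of 13 alternatives, from 0.11 to 0.38, with 7 intervals that excluded 0. These alternatives reuse the same libraries and mostly the same loops, so their number is no replicate check. The window of 100 kb, counted among them, gave the same 0.29 (0.05 to 0.54) as the value reported. Only loops on the gene bodies, also counted, gave 0.30 (-0.06 to 0.67) in HU vs H2O, an interval that includes 0. IFI16 in HU vs H2O ranged from -0.07 to 0.38. At least 24 counts left 5 listed loops with DMSO, 6 with APH, 4 with H2O and 5 with HU, and no shared loop on IFI16. Loops past 1.5-fold went from 2 to 1 in HU vs H2O and from 0 to 1 in APH vs DMSO and in H2O vs DMSO when scaled by all listed loops. That scaling shifts every loop of a contrast alike, and the share of all loops past 1.5-fold under it was not computed. These counts therefore have no share to be set beside. By the interval rule 1 was called in HU vs H2O. With loops assigned to gene ends, 21 pathway genes were measured in place of 13. Those past 1.5-fold went from 0 to 2 in HU vs H2O, both lower, and from 0 to 1 in H2O vs DMSO, higher. In APH vs DMSO they went from 2 to 3. Of all 4536 genes measured by their ends, 344 were higher and 174 lower in HU vs H2O. In APH vs DMSO 202 were higher and 183 lower, and in H2O vs DMSO 116 and 156. Depth limits all values, and the intervals of single loops are wide. No paired analysis was possible because each group holds 1 library. The cause of these differences was not tested.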
